A study of Mus musculus with 27 samples.

Results

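The comparison described here set macrophages lacking the coregulator GRIP1 and exposed to corticosterone against the same cells given vehicle. It comprised 8 of the 27 RNA-seq libraries of the study: the 4 libraries labelled corticosterone and the 4 labelled vehicle among those of the knockout genotype. Bone marrow of male C57BL/6 mice, 8 to 10 weeks old, was cultured for 5 days to give primary macrophages, in medium with 20% serum and 10% L-cell-conditioned medium. Knockout cells had the genotype LysM-Cre+/+; GRIP1fl/fl, in which Cre recombinase made from the Lyz2 (lysozyme M) locus removes the floxed part of Ncoa2, the gene of GRIP1, in myeloid cells. Treatment was 500 nM corticosterone, the main natural glucocorticoid of the mouse, or its vehicle, for 24 h. Wild-type cells (3 corticosterone and 3 vehicle libraries), used below to test the difference between genotypes, were called BL6 in their titles and LysM-Cre+/+ ; GRIP1wt/wt in their genotype field. The other libraries of the study were exposed to dexamethasone or IL4. Whether each library stands for a different animal is not in the labels, and the p-values then cover only library-to-library spread, which may be technical.

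Glucocorticoids enter cells and bind the glucocorticoid receptor, which leaves its chaperone complex, moves to the nucleus and binds DNA, raising some genes and holding down others. GRIP1, a p160 coregulator, is recruited by the receptor at both kinds of gene. In macrophages the hormone is known for lowering inflammatory cytokines and for raising receptors that clear dead cells, while IL4 drives a different state marked by arginase 1 and the lectin Mgl2.

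Ncoa2 itself stood at 19, 16.1, 16.6 and 22.2 CPM (counts relative to the scaled library size) in vehicle libraries 1 to 4 and at 17.2, 19.7, 18.9 and 25.2 CPM in corticosterone libraries 1 to 4. In the 6 wild-type libraries of both treatments it ranged from 55.7 to 87.7 CPM, above all 8 knockout libraries, and corticosterone left it without a call in knockout cells (log2 fold change 0.13 ± 0.14, adjusted p = 0.667). The table gave 1 count per gene, so the floxed part was not analysed separately here. Lyz2, whose locus carries Cre, was at 25.1 to 44.3 CPM in the 8 knockout libraries and at 27.4 to 49.7 CPM in the 6 wild-type ones, so that the genotypes overlapped. The summed level of 19 macrophage identity genes was 11563 to 14092 CPM in vehicle and 13122 to 14092 CPM in corticosterone libraries. Of the markers of other cells, the T cell gene Cd3e, the cytotoxic cell gene Gzma, the B cell precursor gene Vpreb3 and the mast cell gene Cma1 had no count in any of the 8 libraries. Their lists (T and NK cell, B cell, mast cell and basophil) held 12, 12 and 9 genes. All other members had counts in at least 1 of the 8 libraries, and the sums are given below. The libraries held 24573988 to 48023102 counts, and vehicle library 3 was the deepest.

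Vehicle libraries 2 and 3 stood apart from 1 and 4. Arg1, which encodes the IL4-induced enzyme arginase 1, was at 2.63, 117, 78.4 and 4.27 CPM in vehicle libraries 1 to 4. The 3 wild-type vehicle libraries had 1.38 to 3.83 CPM of Arg1, and the 6 IL4-treated libraries of both genotypes 491 to 947 CPM. For Arg1, libraries 2 and 3 thus lay between wild-type vehicle and IL4-treated cells, whereas 1 and 4 were near wild-type vehicle. For other genes of this kind 1 and 4 were above wild-type vehicle too: Mgl2 was at 1.86 and 3.71 CPM against 0.0729 to 0.245 CPM, and Clec7a at 197 and 326 CPM against 62.5 to 120.4 CPM. Values without libraries 2 and 3 are therefore not free of these genes. Single libraries were high after dexamethasone as well, with 0.277 to 68.0 CPM in the 4 knockout libraries and 67.1, 0.993 and 2.07 CPM in wild-type libraries 1 to 3. Corticosterone libraries 2 and 3 were not high in Arg1 (0.449 and 0.392 CPM), although they bear the same numbers. In a principal component analysis of the 8 libraries, the first component (42.2% of variance) placed vehicle libraries 2 and 3 at -40.4 and -29.5, vehicle 1 and 4 at -10.2 and -12.4, and the corticosterone libraries between 20.5 and 26.4. Results below are given with all 4 vehicle libraries, with the counts of most lists also without libraries 2 and 3, and the part of these libraries in a result that is lost without them was not tested further.

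Corticosterone changed 1762 of 14589 tested genes in knockout cells (12.1%; edgeR's quasi-likelihood test, Benjamini-Hochberg adjusted p under 0.05, here "called"). Of these, 877 were higher (6.01%) and 885 lower (6.07%), and 404 changed at least 2-fold (2.77%), with 127 rises (0.871%) and 277 falls (1.9%). With the replicate number as a block, 2974 genes were called (20.4%), 1512 higher (10.4%) and 1462 lower (10%). No label gives this pairing, and the libraries' shared deviations bear it out only in part. Without corticosterone library 4 the rises went down to 584. Without vehicle libraries 2 and 3, 772 of 14818 genes were called (5.21%), 377 higher (2.54%) and 395 lower (2.67%). Of the 1762 calls, 686 (38.9%) remained and none changed sign. Still called were 89 of the 127 rises of at least 2-fold (70.1%) and 126 of the 277 such falls (45.5%), and the difference of these shares was not tested. The libraries of the 2 groups did not overlap at all for 1378 genes that were higher with corticosterone (9.45%) and 1147 that were lower (7.86%). Among the 1762 called genes 1538 did not overlap, so a lack of overlap adds little to a call. Leaving out vehicle libraries 1 and 4 instead, a choice made after seeing the data, kept 1402 of the 1762 calls (79.6%), 108 of the 127 large rises and 242 of the 277 large falls.

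The size of the falls moved with these libraries more than that of the rises. Over the 277 large falls the median log2 fold change was -1.58 with all vehicle libraries, -1.28 without 2 and 3, and -1.77 without 1 and 4. Over the 127 large rises it was 1.51, 1.51 and 1.60. Vehicle libraries 2 and 3 both lay above 1 and 4 for 24.8% of all tested genes, for 49.9% of the genes called lower and for 60.8% of those called lower that were lost without them. In the other direction, they both lay below 1 and 4 for 24.2% of all genes and for 44.7% of the genes called higher. These shares are descriptions, since the calls use the same libraries. Of the 885 genes called lower, 790 had all 4 corticosterone libraries below vehicle libraries 1 and 4. The calls use these libraries too, and the share over all tested genes was not counted.

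**Figure D1:**
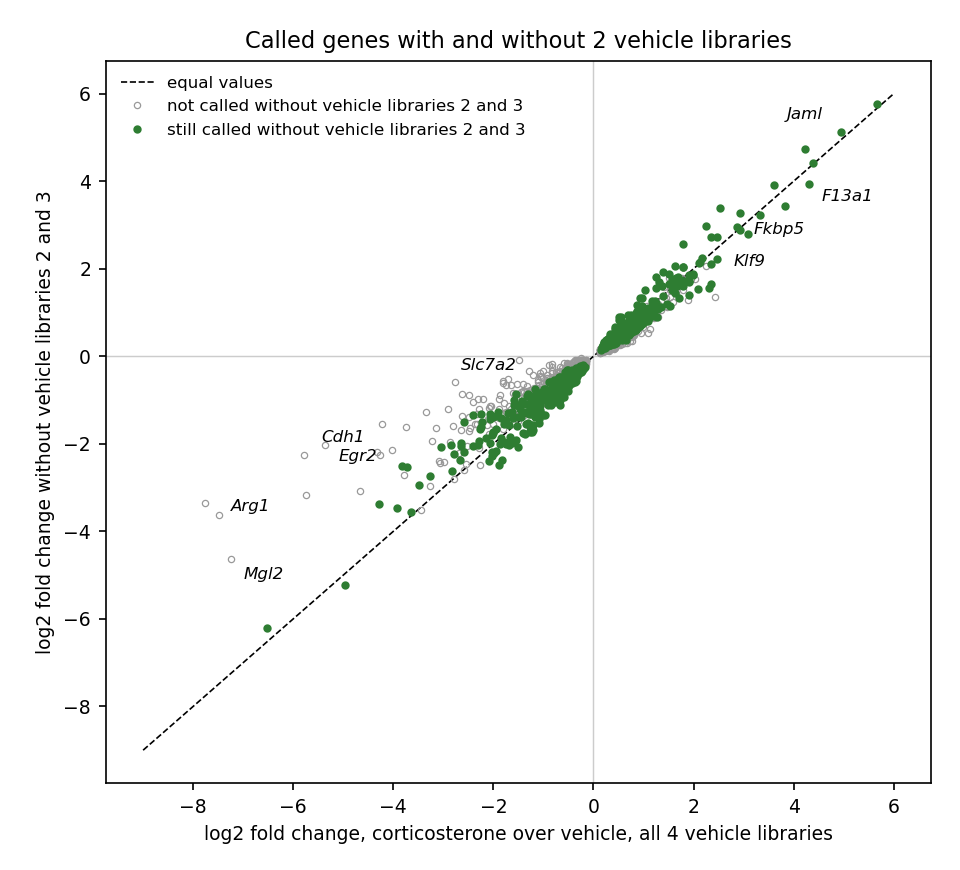
Log2 fold change of corticosterone over vehicle for the 1762 called genes, with all 4 vehicle libraries (horizontal) and without vehicle libraries 2 and 3 (vertical); filled points are the 686 genes still called and open points the 1076 that are not. Rises such as Jaml and Fkbp5 lie on the dashed line of equal values, while falls such as Arg1, Mgl2 and Cdh1 lie above it, closer to 0, without crossing 0.

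Known targets of the glucocorticoid receptor mostly rose where they were called. Of 33 tested genes of that list, 15 rose, 3 fell and 15 were not called (54.5% called, against 12.1% of all genes tested). Their median log2 fold change was 0.27 (median of all tested genes -0.0011). Without vehicle libraries 2 and 3 the counts were 15 and 2, and the median 0.45. Fkbp5, a co-chaperone that lowers the receptor's affinity for hormone, stood at 67.5, 64.6, 74.1 and 58.6 CPM in vehicle libraries 1 to 4 and at 470.3, 482, 497 and 494 CPM in corticosterone libraries 1 to 4. The 2 groups were far apart with little spread inside either (log2 fold change 2.87 ± 0.087, adjusted p = 4.51e-17). Klf9, a zinc-finger repressor, went from 3.76, 6.88, 6.41 and 5.77 to 34.5, 30.4, 30.8 and 31.2 CPM (log2 fold change 2.47 ± 0.12, adjusted p = 1.15e-12). The leucine-zipper gene Tsc22d3 (GILZ), an inhibitor of inflammatory transcription factors, went from 94.9, 130.1, 116 and 119 to 383, 362, 365 and 385 CPM (log2 fold change 1.70 ± 0.11, adjusted p = 4.7e-11). For both genes every corticosterone library exceeded every vehicle library, and most called genes likewise had no overlap. Zbtb16, which encodes the transcription factor PLZF, went from 1.55, 0.86, 1.12 and 1.37 to 6.31, 5.22, 7.34 and 8.14 CPM (log2 fold change 2.46 ± 0.21, adjusted p = 1.49e-08). The AP-1 family repressor Jdp2, which is not on the list, rose by 1.70 ± 0.094 (log2, SE) from 28.2 to 34.5 CPM to 91.9 to 107 CPM. The 3 list members that fell were Anxa1, Tgm2 and Per2. Anxa1, the gene of annexin A1, which is often named as a glucocorticoid-induced mediator, went down from 691, 819, 629 and 642 to 451, 454, 411 and 396 CPM (log2 fold change -0.70 ± 0.088, adjusted p = 5.59e-06). Tgm2, the transglutaminase gene that is also induced by IL4, went down by 0.93 on the log2 scale. The receptor's own gene, Nr3c1, was at 85.4 to 109 CPM in vehicle and 84.6 to 108 CPM in corticosterone libraries and was not called (log2 fold change -0.027 ± 0.089). Of 20 tested genes of the receptor machinery and its coregulators, the 2 that rose were Fkbp5 and the chaperone gene Hsp90b1 (log2 fold change 0.31 ± 0.059, adjusted p = 0.000751), and none fell (2 and 3 with the replicate block). That list was called at 10%, against 12.1% of all genes tested. The plot of rises by library shows the narrow spread of these genes.

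**Figure D2:**
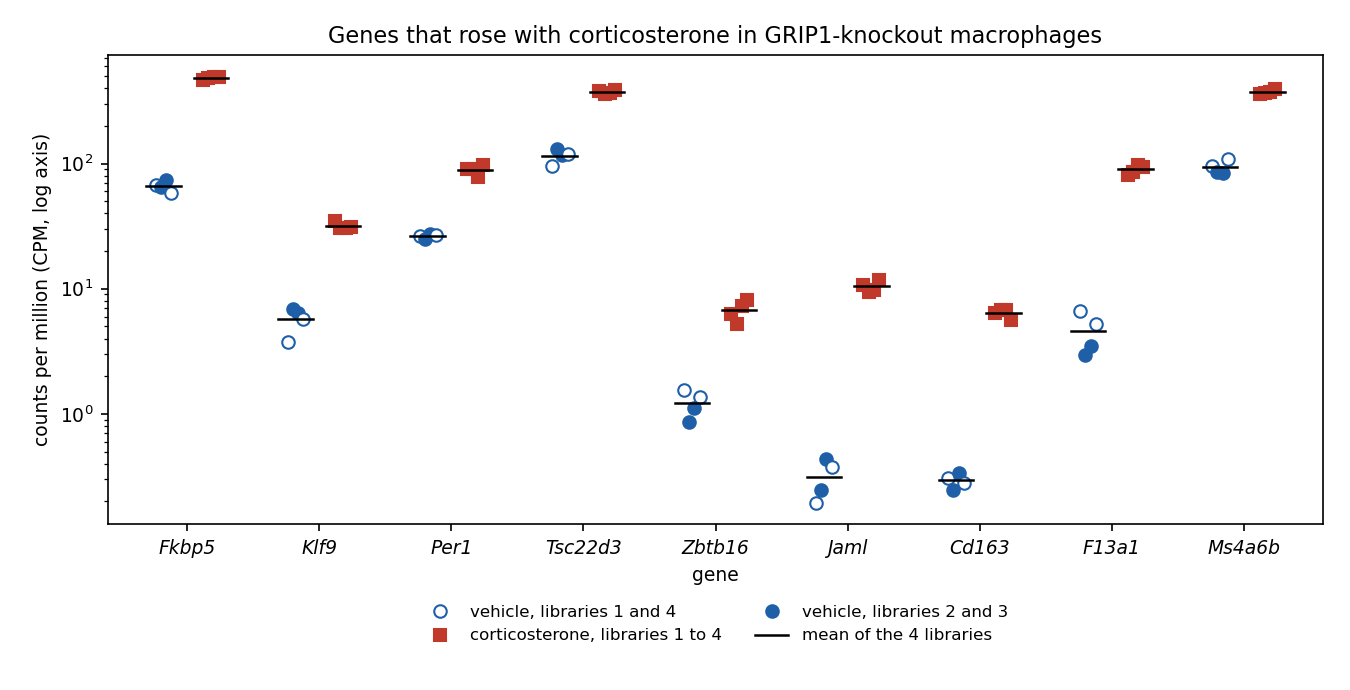
CPM of 9 genes that rose (log axis) in each knockout library; circles are vehicle libraries (open, 1 and 4; filled, 2 and 3), squares are corticosterone libraries, and bars are means. For each gene all 4 squares lie above all 4 circles, and the filled circles are close to the open ones.

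Some brakes on kinase signalling rose. Of the lists of PI3K and mTOR brakes and of MAPK phosphatases, 38.9% and 20% were called, against 12.1% of all genes tested. Of 18 tested genes that restrain PI3K and mTOR, 6 rose and 1 fell (median log2 fold change 0.092), and 3 rose and 1 fell without vehicle libraries 2 and 3 (median -0.0018). Ddit4, which encodes the mTOR inhibitor REDD1, was at 2.67, 2.58, 2.42 and 3.09 CPM in vehicle and at 35.1, 16.6, 21.3 and 34.8 CPM in corticosterone libraries (log2 fold change 3.33 ± 0.40, adjusted p = 5.75e-06). Corticosterone libraries 1 and 4 were higher than 2 and 3, and all were above vehicle. Pik3ip1, an inhibitor of PI3K, rose from a low level (log2 fold change 2.0 ± 0.24, adjusted p = 3.28e-06). Among 15 MAPK phosphatase and feedback genes, 2 rose and 1 fell (2 and 4 with the replicate block). The ERK phosphatase gene Dusp6 went from 130.2, 127, 134 and 135 to 237, 249.8, 250.04 and 244 CPM (log2 fold change 0.90 ± 0.096, adjusted p = 5.59e-07). Its relative Dusp4 fell from 127, 284, 226 and 138 to 41.6, 49.1, 46 and 41.5 CPM (log2 fold change -2.12 ± 0.42, adjusted p = 0.00155), and vehicle libraries 2 and 3 were the high ones. Without them the fall of Dusp4 was not called (log2 fold change -1.57, adjusted p = 0.059). Dusp1, a further MAPK phosphatase gene, was not called with all libraries (log2 fold change 0.27 ± 0.24, adjusted p = 0.583). Nor was it called without vehicle libraries 2 and 3 (log2 fold change -0.048, adjusted p = 0.967).

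Clock genes moved in both directions. Of 18 tested, 2 rose and 7 fell with all libraries (50% called, against 12.1% of all genes tested, median log2 fold change -0.27). Only 2 rises and 3 falls were called without vehicle libraries 2 and 3, where 5.21% of all genes were called. Per1, the period gene with receptor binding sites known from other tissues, rose from 26.6, 24.9, 27.3 and 26.7 to 90.2, 90.6, 77.8 and 96.9 CPM (log2 fold change 1.75 ± 0.094, adjusted p = 4.12e-12). Arntl, which encodes the clock activator BMAL1, rose by less (log2 fold change 0.51 ± 0.10, adjusted p = 0.00149). Its output genes Dbp (log2 fold change -0.84 ± 0.15, adjusted p = 0.000368) and Tef (log2 fold change -0.63 ± 0.11, adjusted p = 0.000238) fell. Per2 fell as well (log2 fold change -0.73 ± 0.18, adjusted p = 0.00859), but not without vehicle libraries 2 and 3 (log2 fold change -0.63, adjusted p = 0.114).

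Genes of surface receptors, adhesion molecules and secreted proteins were among the largest rises with at least 5 CPM, as were Ddit4 and Fkbp5, described above. Jaml, a junctional adhesion molecule of leukocytes, was at 0.194, 0.246, 0.439 and 0.374 CPM in vehicle and at 10.7, 9.47, 9.73 and 11.8 CPM in corticosterone libraries (log2 fold change 4.94 ± 0.28, adjusted p = 1.18e-11). The haemoglobin scavenger receptor gene Cd163 was at 0.31, 0.246, 0.339 and 0.28 and then 6.34, 6.82, 6.82 and 5.63 CPM (log2 fold change 4.40 ± 0.26, adjusted p = 1.6e-11). F13a1, the A chain of coagulation factor XIII, was at 6.66, 2.95, 3.47 and 5.2 and then 81.7, 86.5, 97.2 and 94.7 CPM (log2 fold change 4.32 ± 0.41, adjusted p = 3.26e-07). Every corticosterone library lay far above every vehicle library for all 3, but genes were named as largest rises only where the groups did not overlap. Smaller than these were the rises of Prss16, a serine protease (log2 fold change 3.08 ± 0.33, adjusted p = 9.53e-07), and Adamtsl4, a matrix protein (log2 fold change 2.93 ± 0.25, adjusted p = 2.1e-08). Thbs1, thrombospondin 1, rose as well (log2 fold change 2.35 ± 0.40, adjusted p = 0.000393). Cd55, which inhibits complement on the cell surface, was at 32.4, 13.4, 11.8 and 31.4 CPM in vehicle and at 80.7, 93.2, 73.3 and 87.5 CPM in corticosterone libraries (log2 fold change 1.92 ± 0.30, adjusted p = 0.00016). Vehicle libraries 2 and 3 were the low ones for Cd55, and the rise without them was smaller (log2 fold change 1.39, adjusted p = 0.00542).

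Genes for clearing dead cells and scavenging split. Of 32 tested, 9 rose and 8 fell (53.1% called, against 12.1% of all genes tested, median log2 fold change 0.13). Without vehicle libraries 2 and 3, 8 rose and 6 fell. Mertk, the receptor tyrosine kinase that binds apoptotic cells through bridging ligands, went from 146, 134, 143 and 175 to 320.05, 301, 332 and 369 CPM (log2 fold change 1.15 ± 0.10, adjusted p = 2.97e-08). Stab1, a scavenger receptor of macrophages, went from 2177, 1774, 2052 and 2133 to 4103, 4094, 4593 and 4716 CPM (log2 fold change 1.11 ± 0.11, adjusted p = 2.21e-07). The 3 chains of complement C1q rose together by less than 2-fold: C1qa by 0.51 ± 0.11, C1qb by 0.49 ± 0.085 and C1qc by 0.40 ± 0.068 (log2, SE). C1qa was not called without vehicle libraries 1 and 4 (adjusted p = 0.0525). Among the falls were Cd36, the receptor for oxidised lipids (log2 fold change -0.78 ± 0.12, adjusted p = 0.000117), and Itgb3, the integrin beta-3 chain (log2 fold change -1.80 ± 0.36, adjusted p = 0.00174). Itgb3 was not called without vehicle libraries 2 and 3 (log2 fold change -1.32, adjusted p = 0.0727). Of 18 complement genes, 5 rose and 2 fell (38.9% called), and 4 rose and 1 fell without those libraries.

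Members of the MS4A family, membrane-spanning proteins encoded side by side on chromosome 19, rose without a fall. Of 10 tested, 6 rose (60%, against 6.01% of all genes tested, median log2 fold change 1.25). As many, 6, rose without vehicle libraries 2 and 3 (median 1.28), where 2.54% of all genes were called higher. Ms4a6b went from 95.8, 85.7, 84.2 and 108 to 359, 368, 372 and 393 CPM (log2 fold change 2.0 ± 0.11, adjusted p = 7.22e-12). Ms4a6c (log2 fold change 1.24 ± 0.063, adjusted p = 1.68e-12), Ms4a6d (log2 fold change 0.75 ± 0.078, adjusted p = 3.74e-07), Ms4a4b (log2 fold change 2.10 ± 0.25, adjusted p = 2.44e-06) and Ms4a4c (log2 fold change 1.71 ± 0.32, adjusted p = 0.000576) also rose. Ms4a4a was at 75, 226, 177 and 132 CPM in vehicle and at 359.7, 333, 366 and 395 CPM in corticosterone libraries (log2 fold change 1.25 ± 0.19, adjusted p = 9.4e-05). Its vehicle libraries spread more than those of Ms4a6b, with 2 and 3 high, and the rise was larger without them (log2 fold change 1.81, adjusted p = 1.88e-07). These genes are near-identical in parts, and reads shared between them could have been split by the counting.

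Toll-like receptor genes rose in part. Of 21 tested receptors and adaptors, 5 rose and none fell (23.8% called, against 12.1% of all genes tested). Without vehicle libraries 2 and 3, 3 rose, and with the replicate block 8 rose. Tlr7, an endosomal sensor of single-stranded RNA, went from 262, 243, 265 and 309 to 516, 529, 593 and 678 CPM (log2 fold change 1.10 ± 0.12, adjusted p = 5.45e-07). Tlr13, a sensor of bacterial ribosomal RNA, rose by less (log2 fold change 0.45 ± 0.081, adjusted p = 0.000474). The flagellin receptor gene Tlr5 rose from a low level, 0.246 to 1.01 CPM, to 2.43 to 3.23 CPM (log2 fold change 2.09 ± 0.38, adjusted p = 0.000562).

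Proinflammatory cytokine and NF-kappaB genes mostly fell where they were called. Of 25 tested, 10 fell and 2 rose (48% called, against 12.1% of all genes tested, median log2 fold change -0.21). The falls numbered 10 and the rises 1 without vehicle libraries 2 and 3 (median -0.39), where 5.21% of all genes were called. Tnip3, an inhibitor of NF-kappaB that is itself induced by it, went from 101, 73.9, 75.5 and 86 to 23.9, 28.4, 23.3 and 21.3 CPM (log2 fold change -1.80 ± 0.10, adjusted p = 8.4e-12). Icam1, the adhesion molecule for leukocyte integrins, went from 137, 134, 133 and 151 to 82.1, 85.7, 88.2 and 88.7 CPM (log2 fold change -0.69 ± 0.058, adjusted p = 1.49e-08). Both had tight groups that did not overlap, and most called genes likewise had no overlap. Il1b, the gene of interleukin-1 beta, was low in unstimulated cells at 1.63, 1.47, 1.2 and 2.9 CPM and went down to 0.456, 0.531, 0.62 and 0.60 CPM (log2 fold change -1.69 ± 0.34, adjusted p = 0.0012). Cd40, the receptor for T cell help, went from 4.1, 10.3, 9.0 and 5.11 to 1.6, 2.08, 2.09 and 1.84 CPM (log2 fold change -1.91 ± 0.27, adjusted p = 3.07e-05). The rises were Tnfsf9, a ligand of the TNF family (log2 fold change 0.87 ± 0.16, adjusted p = 0.00072), and Il18, which was not called without vehicle libraries 2 and 3 (log2 fold change 0.42, adjusted p = 0.154).

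Chemokines and their receptors changed in part, with 21.1% of the ligands and 28% of the receptors called against 12.1% of all genes tested. Of 19 chemokine ligands tested, 2 rose and 2 fell (3 and 7 with the replicate block, 3 and 4 without vehicle libraries 2 and 3). The list's median log2 fold change was -0.35 with all libraries and 0.12 without vehicle libraries 2 and 3. Ccl22, a ligand of CCR4, fell from 0.499 to 0.898 CPM to 0.033 to 0.19 CPM (log2 fold change -2.84 ± 0.58, adjusted p = 0.00162). Pf4, platelet factor 4, rose (log2 fold change 0.75 ± 0.19, adjusted p = 0.0107), but was not called without vehicle libraries 1 and 4 (adjusted p = 0.128). Ccl9 rose (log2 fold change 0.43 ± 0.12, adjusted p = 0.0163) and Ccl5 fell (log2 fold change -1.0 ± 0.30, adjusted p = 0.0283), and both were lost in several other settings, among them the one without vehicle libraries 1 and 4. Of 25 chemoattractant receptors, 3 rose and 4 fell (6 and 7 with the block, 2 and 4 without vehicle libraries 2 and 3). The falls included the monocyte chemokine receptor gene Ccr2, at 3.87, 4.1, 4.67 and 4.11 and then 2.17, 1.55, 2.02 and 2.06 CPM (log2 fold change -1.10 ± 0.17, adjusted p = 0.000105). Ccr3, next to it on chromosome 9, fell by a like amount (log2 fold change -1.16 ± 0.15, adjusted p = 8.43e-06). The nucleotide receptor gene P2ry13 rose (log2 fold change 1.06 ± 0.20, adjusted p = 0.000684).

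Interferon-stimulated genes were called at 7 of 41 (17.1%, against 12.1% of all genes tested), with 2 rises and 5 falls (median log2 fold change -0.15). Without vehicle libraries 2 and 3 there were 2 rises and 9 falls. Gbp7, a guanylate-binding protein (log2 fold change 0.92 ± 0.14, adjusted p = 8.93e-05), and Ifi204, a DNA sensor (log2 fold change 0.50 ± 0.099, adjusted p = 0.00131), rose. The nucleic acid sensor gene Zbp1 fell from 2.32, 2.91, 2.12 and 4.3 to 1.82, 1.27, 1.08 and 1.39 CPM (log2 fold change -1.07 ± 0.22, adjusted p = 0.00142).

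The largest falls were of genes known to rise with IL4. Of 35 tested genes of the IL4 and alternative activation list, 19 fell and 1 rose (57.1% called, against 12.1% of all genes tested, median log2 fold change -2.48). Without vehicle libraries 2 and 3, 8 fell and 1 rose (median -0.87), where 5.21% of all genes were called. Summed over the 36 genes of the list, the level was 2478, 5339, 4249 and 3039 CPM in vehicle libraries 1 to 4 and 2223 to 2576 CPM in the corticosterone libraries, so libraries 2 and 3 were high and library 1 lay within the corticosterone range. The 1 rise was Il4ra, the IL4 receptor alpha chain, from 226, 245, 235 and 245 to 353, 419.97, 383 and 396 CPM (log2 fold change 0.71 ± 0.082, adjusted p = 1.92e-06), with vehicle libraries 2 and 3 no different from 1 and 4.

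Arg1 fell to 0.114, 0.449, 0.392 and 0.15 CPM in corticosterone libraries 1 to 4, which together held 30 counts of it. The fall was called with all vehicle libraries (log2 fold change -7.49 ± 1.89, adjusted p = 0.011), but not without 2 and 3 (log2 fold change -3.64, adjusted p = 0.544). Mgl2, a galactose-binding lectin, was at 1.86, 36.5, 27.8 and 3.71 CPM in vehicle libraries 1 to 4 and at 0.038, 0.122, 0.163 and 0.113 CPM in corticosterone libraries 1 to 4, the latter from 12 counts in all (log2 fold change -7.25 ± 1.44, adjusted p = 0.00161). Without vehicle libraries 2 and 3 its fall was not called either (log2 fold change -4.62, adjusted p = 0.123). For both genes all corticosterone libraries lay below vehicle libraries 1 and 4, but genes were named as largest falls only where the groups did not overlap.

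Further genes of this kind also lost their calls. Cdh1, E-cadherin, was at 2.05, 14.3, 13.9 and 2.37 CPM in vehicle and at 0.266, 0.653, 0.424 and 0.675 CPM in corticosterone libraries (log2 fold change -4.03 ± 0.72, adjusted p = 0.000596; log2 fold change -2.14, adjusted p = 0.0705 without vehicle libraries 2 and 3). Socs1, a feedback inhibitor of cytokine receptors, was at 3.91, 57.4, 11 and 5.11 CPM in vehicle, where library 2 stood alone, and at 2.35, 1.84, 2.06 and 1.24 CPM in corticosterone libraries (log2 fold change -3.34 ± 0.77, adjusted p = 0.00535; log2 fold change -1.27, adjusted p = 0.332 without 2 and 3). Flt1, a receptor for vascular endothelial growth factor, was at 10.6, 55.8, 53.5 and 9.35 and then 4.82, 3.92, 4.41 and 4.24 CPM (log2 fold change -2.90 ± 0.57, adjusted p = 0.00155; log2 fold change -1.19, adjusted p = 0.22 without 2 and 3). These 3 genes shared the order of the vehicle libraries with Arg1, in that 2 and 3 were above 1 and 4. Ablim1, an actin-binding protein, Tmem26 and the arginine transporter gene Slc7a2 fell too with all libraries (by 4.33, 3.14 and 2.48 on the log2 scale), but were not called without 2 and 3 (adjusted p = 0.375, 0.213 and 0.647). Slc7a2 also lost its call without vehicle library 2 alone, without 3 alone, and without corticosterone library 1 or 3. Retnla, which encodes the secreted protein RELM-alpha, was listed at 0 in vehicle libraries 1 and 4 and was at 6.06 and 1.42 CPM in 2 and 3, with at most 0.188 CPM after corticosterone. It was not called (adjusted p = 0.0534), and its direction rests on the 2 libraries. Chil3, which IL4 raised in wild-type cells (log2 fold change 4.28), was not called either (log2 fold change -0.52 ± 0.63, adjusted p = 0.714). Chil3 was at 4.61, 51.8, 27.9 and 7.23 CPM in vehicle and at 17.1, 14.4, 15.4 and 16.7 CPM in corticosterone libraries. Without vehicle libraries 2 and 3 its log2 fold change was above that, at 1.41 (adjusted p = 0.356).

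Several IL4-type genes fell with and without these libraries. Egr2, a transcription factor of the IL4 response, was at 9.6, 74.2, 52 and 21.2 CPM in vehicle and at 2.39, 3.39, 2.51 and 2.74 CPM in corticosterone libraries (log2 fold change -3.84 ± 0.66, adjusted p = 0.000389; log2 fold change -2.50, adjusted p = 0.0249 without vehicle libraries 2 and 3). Myrf, a membrane-bound transcription factor, was at 2.44, 13.6, 9.0 and 3.86 and then 0.456, 0.449, 0.555 and 0.713 CPM (log2 fold change -3.72 ± 0.44, adjusted p = 4.33e-06; log2 fold change -2.54, adjusted p = 6.33e-06). Clec7a, the beta-glucan receptor dectin-1, was at 197, 678, 464 and 326 and then 69.2, 62.4, 57.2 and 75.3 CPM (log2 fold change -2.66 ± 0.45, adjusted p = 0.000373; log2 fold change -1.99, adjusted p = 0.0164). In all 3 the corticosterone libraries stood closely together and below each vehicle library. Such separation was a condition for naming Egr2 and Myrf among the largest falls, and Clec7a was chosen after its values were seen. Itgax, the integrin CD11c, was at 71.3, 224, 184 and 126 and then 34.5, 33.9, 29.6 and 47.1 CPM (log2 fold change -2.06 ± 0.34, adjusted p = 0.000284; log2 fold change -1.44, adjusted p = 0.0192). Matk, a kinase that restrains Src kinases, also kept its call, at -1.32 (log2) without the 2 libraries against -2.26 with them. So did Ch25h, the cholesterol 25-hydroxylase gene, at -2.06 against -2.64, which is on the list but was not called for IL4 in wild-type cells (log2 fold change 0.23, adjusted p = 0.663).

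**Figure D3:**
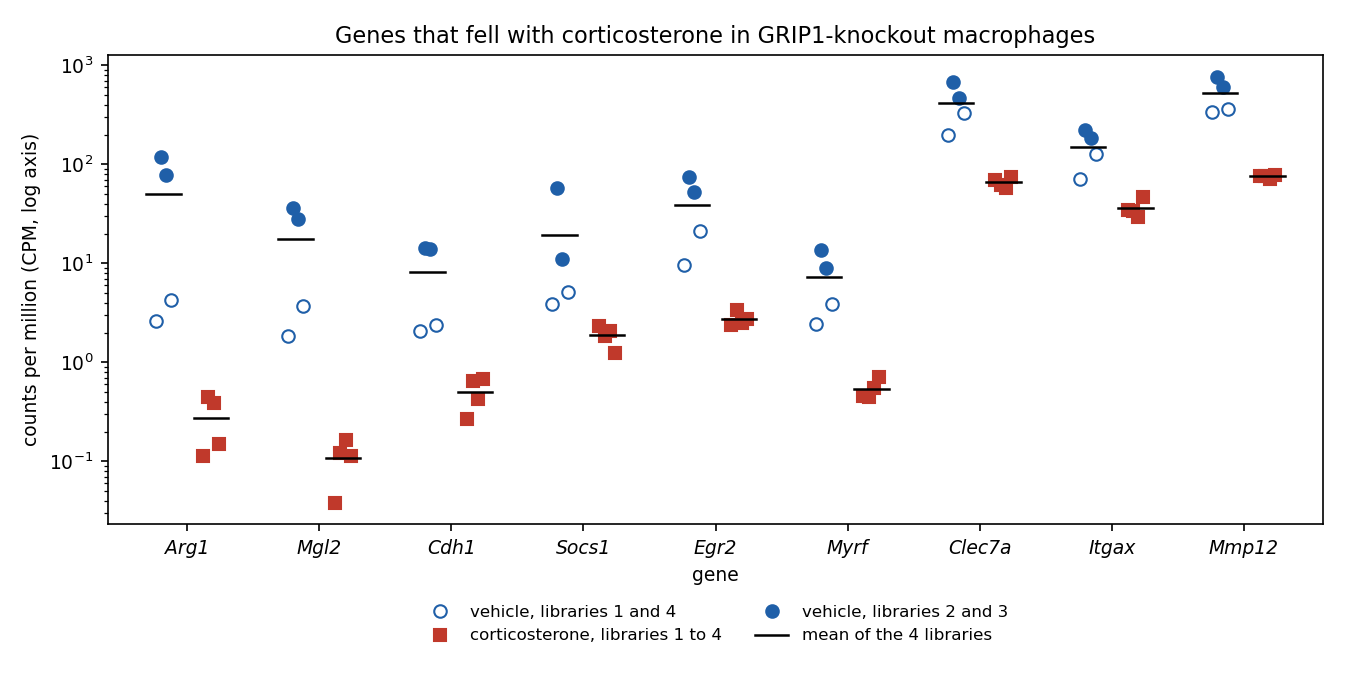
CPM of 9 genes that fell (log axis) in each knockout library; circles are vehicle libraries (open, 1 and 4; filled, 2 and 3), squares are corticosterone libraries, and bars are means. For each gene the filled circles lie above the open ones and the squares lie below all circles, with the widest gap between vehicle libraries for Arg1 and Mgl2.

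Genes that IL4 raises were also taken from the wild-type libraries, which are not in either group compared here but share the filter, scaling and spread of the fit. In wild-type cells, IL4 raised 250 of the 14589 genes at least 4-fold (1.71%). Of these 250 genes, 130 fell with corticosterone in knockout cells (52%, and 14.7% of all genes called lower) and 3 rose. They made up 119 of the 277 large falls (43.0%). Among the large falls that were lost without vehicle libraries 2 and 3 they were 57.6%, and among those that remained 25.4%. No IL4 was given to any of the 8 libraries according to the labels, and the source of the high levels in vehicle libraries 2 and 3 was not tested.

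Some genes of antigen presentation, cell fusion, lipid uptake and matrix breakdown fell as well. Of 12 tested MHC class II genes, 7 fell (58.3%, against 6.07% of all genes tested, median log2 fold change -0.57). Only 2 fell without vehicle libraries 2 and 3 (median -0.24), where 2.67% of all genes were called lower. Ciita, the master activator of this class, was at 2.83, 3.77, 4.85 and 4.8 and then 1.37, 0.735, 0.62 and 1.2 CPM (log2 fold change -2.06 ± 0.28, adjusted p = 1.72e-05). H2-Ab1 was at 48.4, 86.4, 66.9 and 75.3 and then 42.7, 33.3, 29.3 and 34.8 CPM (log2 fold change -0.98 ± 0.20, adjusted p = 0.00144), and the fall of the invariant chain gene Cd74 was not called without the 2 libraries (log2 fold change -0.63, adjusted p = 0.0606). Of 10 osteoclast and fusion genes, 6 fell (60%, against 6.07% of all genes tested), 4 of them also without the 2 libraries. Dcstamp, a fusion receptor, fell from 2.17, 2.09, 3.33 and 1.4 to 0.494, 0.367, 0.424 and 0.563 CPM (log2 fold change -2.29 ± 0.30, adjusted p = 8.2e-06). The proton pump subunit gene Atp6v0d2 fell (log2 fold change -1.65 ± 0.35, adjusted p = 0.0030), but was not called without the 2 libraries (log2 fold change -1.22, adjusted p = 0.0945).

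Of 22 lipid uptake and LXR genes, 8 fell and 1 rose (40.9% called, against 12.1% of all genes tested), and 6 fell and none rose without vehicle libraries 2 and 3. Lpl, lipoprotein lipase, was at 1884, 2363, 1783 and 1724 CPM in vehicle and at 837, 748, 689 and 701 CPM in corticosterone libraries (log2 fold change -1.38 ± 0.11, adjusted p = 1.22e-08). Lipa, the lysosomal acid lipase gene, was at 1139, 1058, 973 and 1124 and then 746, 688, 687 and 776 CPM (log2 fold change -0.57 ± 0.055, adjusted p = 1.37e-07). Pparg, the fatty acid receptor gene, fell too (log2 fold change -1.11 ± 0.18, adjusted p = 0.000165). Vehicle and corticosterone libraries did not overlap for any of the 3, as was so for 1538 of the 1762 called genes. Mmp12, the macrophage elastase, was at 341, 769.9, 609.8 and 365 and then 77, 75.4, 71.3 and 77.7 CPM (log2 fold change -2.79 ± 0.39, adjusted p = 4.29e-05; log2 fold change -2.23, adjusted p = 0.00219 without the 2 libraries). Of 20 matrix remodelling genes, 6 fell and 1 rose (35% called, against 12.1% of all genes tested). Without the 2 libraries, 2 fell and 2 rose.

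**Figure D4:**
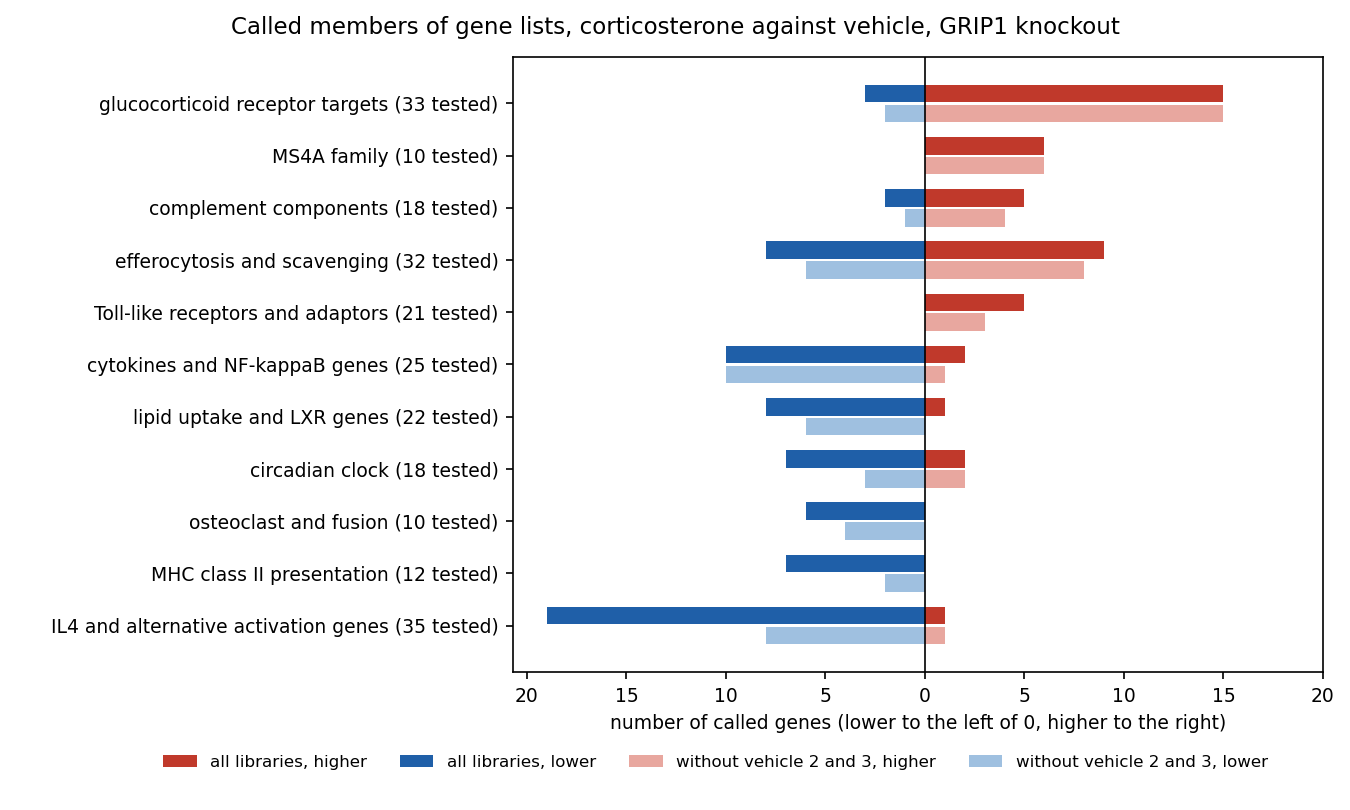
Number of called genes in 11 lists, lower to the left and higher to the right of 0; dark bars use all libraries and pale bars leave out vehicle libraries 2 and 3. The receptor target and MS4A lists had 15 and 6 rises both ways (14 and 6 of them the same genes), while the IL4 list went from 19 falls to 8 and the MHC class II list from 7 to 2. Over all genes tested, rises went from 877 to 377 and falls from 885 to 395.

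Iron and amino acid genes gave smaller changes. Of 18 iron and haem genes, 5 rose and 2 fell (38.9% called, against 12.1% of all genes tested). Without vehicle libraries 2 and 3, 2 rose and 1 fell. Hmox1, haem oxygenase 1, rose (log2 fold change 0.57 ± 0.13, adjusted p = 0.00367), but the call was just missed without vehicle libraries 1 and 4 (log2 fold change 0.49, adjusted p = 0.0505). The iron exporter gene Slc40a1 (log2 fold change 1.12 ± 0.26, adjusted p = 0.00472) and the transferrin receptor gene Tfrc (log2 fold change -1.13 ± 0.25, adjusted p = 0.00378) lost their calls without libraries 2 and 3 (adjusted p = 0.10 and 0.118). Of 19 genes of the integrated stress response, 6 fell and 1 rose (36.8% called), but no fall was called without the 2 libraries. Asns, asparagine synthetase (log2 fold change -0.78 ± 0.16, adjusted p = 0.00163), and Slc7a5, a transporter of large amino acids (log2 fold change -0.78 ± 0.17, adjusted p = 0.00266), were among these 6, with log2 fold changes of -0.61 and -0.68 without the 2 libraries (adjusted p = 0.060 and 0.056). Of 24 genes each of cholesterol synthesis and oxidative phosphorylation, none was called by edgeR or DESeq2, and 1 in each list had an unadjusted p under 0.05. Among 46 cell cycle genes, 1 rose and 2 fell (2 and 4 with the replicate block, 0 and 1 without vehicle libraries 2 and 3). With all libraries and no block 6.52% of them were called, below the 12.1% of all genes tested. The other metabolic lists had few calls: 2 falls among 23 fatty acid oxidation genes, and 1 rise and 2 falls among 21 glycolysis genes, none of them called without vehicle libraries 2 and 3. With the block these became 2 rises and 4 falls, and 1 rise and 6 falls. Without the block, 8.70% and 14.3% of these 2 lists were called, near the 12.1% of all genes tested.

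Summed markers of other cell types moved with the treatment in several lists, and their part in the results was not tested. Of the 6 tested genes of the B cell list, 4 fell (3 without vehicle libraries 2 and 3), against 6.07% of all genes tested. The list summed to 537 to 596 CPM in vehicle and 266 to 303 CPM in corticosterone libraries. Most of that sum was Cd72, a coreceptor that macrophages also express, at 429, 379, 380.2 and 409 and then 185, 171, 153 and 163 CPM (log2 fold change -1.25 ± 0.098, adjusted p = 4.8e-09), and the adaptor gene Blnk (log2 fold change -0.47 ± 0.084, adjusted p = 0.000352). The immunoglobulin genes Ighm (log2 fold change -2.02 ± 0.31, adjusted p = 9.33e-05) and Igkc were at 4.10 to 7.01 and 0.860 to 1.36 CPM in vehicle, and the call of Igkc (adjusted p = 0.0271) was lost in several other settings, among them those without vehicle libraries 2 and 3 or 1 and 4. Of 4 tested T and NK cell genes, 2 fell, among them Il7r, the interleukin-7 receptor gene (log2 fold change -0.63 ± 0.14, adjusted p = 0.00264), which was not called without vehicle libraries 2 and 3 (log2 fold change -0.55, adjusted p = 0.0548). No T and NK cell gene was called without those 2 libraries. The sum of that list was 175 to 213 CPM in vehicle and 120.1 to 137 CPM in corticosterone libraries, mostly Il7r. The erythroid list summed to 786 to 1424 CPM in vehicle and 421 to 490.04 CPM in corticosterone libraries, of which Tfrc, which dividing cells of any type express, made up nearly all (means of 1010 and 462 CPM). Endothelial markers summed to 111 to 142 and then 78.7 to 92.9 CPM, and mast cell and basophil markers to 3.19 to 6.74 and then 2.02 to 2.37 CPM. The sum of the monocyte list went the other way, from 118 to 191 CPM to 214 to 229 CPM. F13a1 alone rose from a mean of 4.57 to 90.04 CPM, so the sum does not show a rise of the other members. The 9 monocyte genes tested gave 2 rises and 1 fall (4 and 1 with the replicate block, 1 and 1 without vehicle libraries 2 and 3), F13a1 and Ccr2 among them. Among the identity genes, Maf, a transcription factor of resident macrophages, rose (log2 fold change 0.59 ± 0.11, adjusted p = 0.000926) and Csf2ra, the GM-CSF receptor alpha chain, fell (log2 fold change -0.41 ± 0.068, adjusted p = 0.000156). The neutrophil (0 rises and 1 fall of 11), dendritic cell (1 and 1 of 6), erythroid (0 and 1 of 3) and endothelial (0 and 2 of 8) lists had at most 2 called members, and without vehicle libraries 2 and 3 the rises and falls were 1 and 1, 0 and 1, 0 and 0, and 0 and 1. None of the 6 mast cell and basophil genes and none of the 13 stromal genes was called by edgeR, with 3 and 1 at an unadjusted p under 0.05 and 1 in each list called by DESeq2. The block gave 4 falls among the mast cell and basophil genes, 1 rise and 1 fall among the stromal genes, and 2 rises and 2 falls among the neutrophil genes. In bulk RNA, fewer cells of a type and less RNA per cell cannot be told apart.

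Promoters were searched on both strands for 4 motifs, 250 bases before to 50 after the start, in RefSeq sequences of the build GRCm38.p6, which matched 10614 of the 14589 genes tested. Shares are of genes with a promoter sequence. The glucocorticoid response element, searched as GNACA and TGTNC with any 3 bases between them, was in 3 of 679 genes called higher (0.442%). It was in 2 of 664 genes called lower (0.301%) and 38 of all 10614 (0.358%). The AP-1 motif TGANTCA was in 7.95%, 9.94% and 6.58%, the kappaB motif (GGGAN joined to TTTCC) in 0.884%, 1.36% and 0.556%, and the E-box CACGTG in 13%, 11.7% and 11.7%. The windows below show 1 match of each kind upstream of a RefSeq start of a gene that changed, with the match in capitals and all on the plus strand. Map3k6, a stress kinase gene that rose (log2 fold change 0.75 ± 0.086, adjusted p = 1.53e-06), was chosen after its values were seen as 1 of the 3 risen genes with a response element, at 181 to 169 bases before the start, chr4:133240592-133240694. The E-box of Per1 lies 166 to 161 bases before the start, chr11:69098738-69098833. The AP-1 match of Mmp12 lies 44 to 38 bases before the start, chr9:7347285-7347373, and the kappaB match of Ms4a4a 247 to 238 bases before it, chr19:11375238-11375295. The RefSeq starts of Per1 and Mmp12 used here lie inside the genes as GENCODE vM21 has them (first bases 69095217 and 7344381), so these windows are upstream of an internal start. A match is a description of letters and does not show binding.
Map3k6: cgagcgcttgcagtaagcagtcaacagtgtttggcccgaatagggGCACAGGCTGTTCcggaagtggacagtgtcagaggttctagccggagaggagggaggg
Per1: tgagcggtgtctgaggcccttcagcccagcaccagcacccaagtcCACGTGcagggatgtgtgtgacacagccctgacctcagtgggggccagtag
Mmp12: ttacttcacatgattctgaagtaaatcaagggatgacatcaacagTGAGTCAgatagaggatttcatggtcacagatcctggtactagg
Ms4a4a: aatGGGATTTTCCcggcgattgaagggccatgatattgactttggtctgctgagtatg

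The wild-type response served to test whether the genotypes differed. Corticosterone changed 866 genes in wild-type cells (5.94%) with 3 libraries a group, and 553 genes were called in both genotypes in the same direction (31.4% of the knockout and 63.9% of the wild-type calls), against 1 in opposite directions. The difference of the responses was called for 3 genes (0.0206%), and 926 had an unadjusted p under 0.05 (6.35%). Ms4a4a rose by 1.25 ± 0.19 in knockout and by 3.36 ± 0.24 in wild-type cells (log2, SE), a difference of -2.10 (adjusted p = 0.00461). Wild-type vehicle libraries had 21.3 to 26.1 CPM of it and wild-type corticosterone libraries 230.1 to 264 CPM, so that knockout cells started higher and ended higher. For Lpl the log2 fold change was -1.38 ± 0.11 in knockout and -0.22 ± 0.13 in wild-type cells, a difference of -1.16 (adjusted p = 0.00461). Ppfibp2, a liprin family scaffold protein, fell in wild-type cells from 91.2 to 96.6 CPM to 50.4 to 54.9 CPM and was at 51.6 to 68.8 CPM in knockout vehicle and 53.2 to 60.3 CPM in knockout corticosterone libraries (difference 0.76, adjusted p = 0.00771). The call for Ms4a4a was lost when only the 4 groups compared entered the fit (adjusted p = 0.0788), and that for Ppfibp2 without wild-type corticosterone library 2 (adjusted p = 0.0553).

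Other differences missed the threshold. The rise of Zbtb16 was 2.46 ± 0.21 in knockout and 4.11 ± 0.26 in wild-type cells (difference -1.64, adjusted p = 0.0688). That of Adamtsl4 was 2.93 ± 0.25 and 1.15 ± 0.26 (difference 1.77, adjusted p = 0.0688). The IL4-type genes did not give a called difference. For Arg1 the wild-type log2 fold change was -0.25 ± 1.99 and the difference -7.24 (adjusted p = 0.630), and for Egr2 they were -1.03 ± 0.74 and -2.80 (adjusted p = 0.457). The count of called differences depended on the vehicle libraries: it was 36 without vehicle library 1, 9 without 4, 296 without both, and 5 without 2 and 3. It was 110 with the replicate block and 76 with DESeq2.

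**Figure D5:**
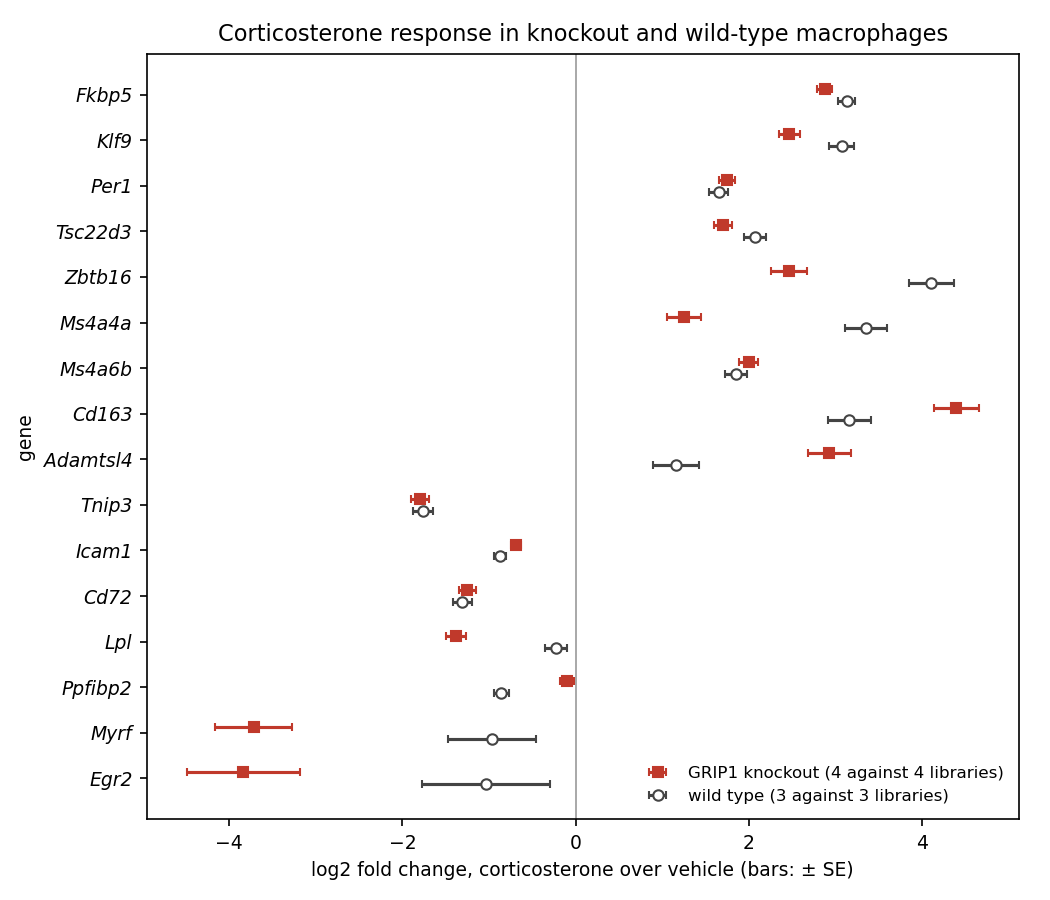
Log2 fold change of corticosterone over vehicle with its SE in knockout (squares) and wild-type (circles) cells for 16 genes. Fkbp5, Per1, Tnip3 and Cd72 have like values in both genotypes, while Ms4a4a, Lpl and Ppfibp2 are the 3 genes called for the difference.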

How the data were processed

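The values were raw read counts per gene, deposited by the authors, from poly(A) RNA (RIN above 8) sequenced as 50 bp paired reads of a directional library (per the labels). Per the submitters' processing notes the tools were fastp 0.23.2, STAR 2.7.0, featureCounts and edgeR 3.38.4, with the mm10 build. Strand use during counting was not given in the sources used here, so overlapping, antisense and near-identical genes are less certain. The table held 29872 genes, of which filterByExpr (minimum count 10) kept 14589. All 27 libraries were fitted together, 1 mean per group (8 groups), after TMM scaling, with edgeR 4.0.16 in R 4.3.3 (quasi-likelihood F test, legacy, robust), and p-values were adjusted by the Benjamini-Hochberg method. The common biological coefficient of variation was 0.122. Depth was 24573988 to 48023102 counts in the 8 libraries, and no 2 libraries of a group agreed within sampling noise. The scripts were tested on simulated data.

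Alternatives were RLE size factors, no filter, a minimum count of 50, edgeR's newer fit, DESeq2 1.42.0, only the groups compared, a replicate block and left-out libraries. Deviations of same-numbered vehicle and corticosterone libraries from their group means correlated at 0.112 to 0.274 across genes (other pairs -0.242 to 0.157). These ranges overlap, as corticosterone library 1 correlated more with vehicle library 4 (0.157) than with vehicle library 1 (0.112). No label says what a number shares, so the pairing of the block is not established. The members and the 39 gene lists were chosen with earlier results of these data known. Genes named were the 15 largest rises and falls (at least 5 CPM, groups not overlapping), up to 4 called genes of each list, the genes called for the difference between genotypes, calls lost without vehicle libraries 2 and 3, and a few set genes such as Arg1. Chosen after their values were seen were Atp6v0d2, C1qa, Clec7a, Il18, Jdp2, Map3k6, Ms4a4c, Per2 and Pparg. Not every gene these rules name is printed. Promoters came from RefSeq (GRCm38.p6).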

Additional observations from a re-analysis of the deposited data

Results flagged for a closer look

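In the highest vehicle library, number 2, Socs1 stood at 57.4 CPM, far from the other 3 vehicle libraries at 3.91 to 11 CPM. Ccl9 was at 790.0 CPM in corticosterone library 2 and at 647 to 659 CPM in the other 3. Il7r was at 102.7 CPM in corticosterone library 3 and at 110.8 to 111.8 CPM in the other 3. Chance flags about 1 in 20 such groups, and these were 3 of 196 groups of 4 libraries checked.

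The response to corticosterone differed between knockout and wild-type cells for Ms4a4a (log2 difference -2.10), Lpl (-1.16) and Ppfibp2 (0.755), by edgeR's test of the difference itself.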

How the results depend on the processing

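The count of 1762 called genes was 1309 to 1946 under RLE size factors, no filter, a minimum count of 50, edgeR's newer fit, DESeq2 or only the groups compared. It was 1250 to 1814 when 1 library was left out (higher 584 to 905, lower 633 to 909, at least 2-fold 323 to 438). The replicate block gave 2974 calls, 1512 higher and 1462 lower, and changed no call of a named gene. Without vehicle libraries 2 and 3 there were 772 calls, 377 higher, 395 lower and 223 of at least 2-fold. Without libraries 2 and 3 of both groups there were 399, 225, 174 and 150, and 43 of the 98 named genes checked lost their call, with 2 libraries left a group. Chil3 and Dusp1 were not among these 98. Genes called for the difference between genotypes numbered 7 with a minimum count of 50, 76 with DESeq2, 13 with only the groups compared, 110 with the block, 2 to 36 with 1 library left out (36 without vehicle library 1, 9 without 4), 5 without vehicle libraries 2 and 3, 0 without 2 and 3 of both groups, and 296 without vehicle libraries 1 and 4. The cause was not tested. Outside the 98 genes, Chil3 and Dusp1, neither of them called, turned sign without vehicle 2 and 3 (1.41 and -0.048). Genes without a call turned sign: Ncoa2 (-0.0024 to 0.23 with 1 library left out, below 0 without corticosterone library 4, and -0.027 without vehicle 2 and 3), Nr3c1 (-0.10 to 0.024 with 1 library left out, above 0 without vehicle 1, vehicle 4 or corticosterone 2, and 0.11 without vehicle 1 and 4), Lyz2 (-0.032 without vehicle 2 and 3), Ppfibp2 (0.061 without vehicle 1 and 4) and Retnla (4.26 and 4.90 without vehicle 2 and 3, or 2 and 3 of both groups, at a level near 0 in all libraries left).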
